A study of Glycine max with 48 samples.

Results

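A set of 75 soybean genes was examined that were high in the anther, low in the other flower organs, and low in anthers of plants under combined water deficit and heat. The members were chosen from group means of the deposited FPKM values (fragments counted in a gene, divided by its length and by the size of the library). A member had a control anther mean from 20 to under 300 FPKM. Its control anther mean + 1 was at least 8 times the control mean + 1 of the sepal, the ovary and the stigma each. Its mean in combined-stress anthers was at most 20% of its control anther mean. Of 55897 genes with a GLYMA identifier, 989 met the conditions on level and organ, and 75 of these also met the condition on combined stress. The other 914 are called the retained anther genes. The name means only that they stayed above the 20% limit, since their median under combined stress was 41.2% of control. The control libraries of the 4 organs and the combined-stress anther libraries therefore chose the members, and values from those libraries are given as a description. Heated and water-deficit anthers, and the stressed libraries of the other organs, were not used by the rule.

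The series holds 48 libraries of the cultivar Magellan (Glycine max), 3 for each of 4 flower organs (anther, stigma, sepal and ovary) under each of 4 treatments. Combined-stress plants had days of 38 °C, nights of 28 °C and 30% of the water they could transpire. Heated plants had those temperatures and 100% of that water, water-deficit plants had days of 28 °C, nights of 24 °C and 30%, and control plants had the cooler temperatures and 100%. Seeds of all groups were inoculated with Bradyrhizobium japonicum, days had 12 h of light, and treatments began when flowers first opened, after 16 to 18 days in pots. Each library pooled organs of about 10 to 15 flowers from 8 to 10 plants, so differences between single flowers or plants are not visible. Treatments ran in 4 chambers with no stated assignment, so chamber and treatment cannot be told apart. The labels call each pool a biological repeat.

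The anther is the pollen-producing part of the stamen. Its inner layer, the tapetum, feeds the developing pollen and supplies material for the pollen wall, and pollen itself carries a large set of transcripts that other organs lack. Male development is known in many crops as a heat-sensitive stage of reproduction. The files pair no names with the identifiers, and 0 of the 75 members matched the reference gene table, so no member is given a name or a role. The identifiers of the members carry 20 different chromosome numbers, with between 1 and 7 members each. A single pair, GLYMA_09G042100 and GLYMA_09G042200, has consecutive identifiers.

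Absolute depth is unknown, since the values are FPKM without counts. From the regular steps of low values, the highest depth relative to the lowest was 1.60 among anther libraries and 1.45 among stigma libraries. The 1231 genes enriched in control anthers at 20 FPKM or more held between 52.9% and 59.3% of summed FPKM in control anther libraries. The same genes held between 28.0% and 38.6% in combined-stress anthers, 46.7% and 53.3% in heated ones and 52.8% and 57.7% in water-deficit ones. The control libraries chose these genes, so their own share is a description. Combined-stress anther libraries also had a lower share of this RNA than heated and water-deficit ones, none of which had chosen the genes. In bulk organs, fewer cells of a type and less RNA per cell cannot be told apart.

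The members were lowest in combined-stress anthers, intermediate in heated anthers, and near the control level in water-deficit anthers. Over the 75 members, the median FPKM was 7.48, 7.37 and 4.85 in the combined-stress libraries and 17.6, 24.97 and 14.6 in the heated libraries. It was 51.0, 45.8 and 42.9 in the water-deficit libraries and 54.3, 50.9 and 41.6 in the control libraries. The medians of combined-stress and heated libraries lay apart from each other and from all the rest, whereas those of water-deficit and control libraries overlapped. The members summed to 0.137% ± 0.0347 (SD, n = 3) of all FPKM under combined stress, 0.357% ± 0.0998 under heat, 0.830% ± 0.0613 under water deficit and 0.896% ± 0.121 in the control. The order of means from water deficit through heat to combined stress, each lower than the one before, held for 72 of 75 members. The rule had fixed a low combined-stress mean, and this order was not counted over all genes, so the count is a description.

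**Figure D1:**
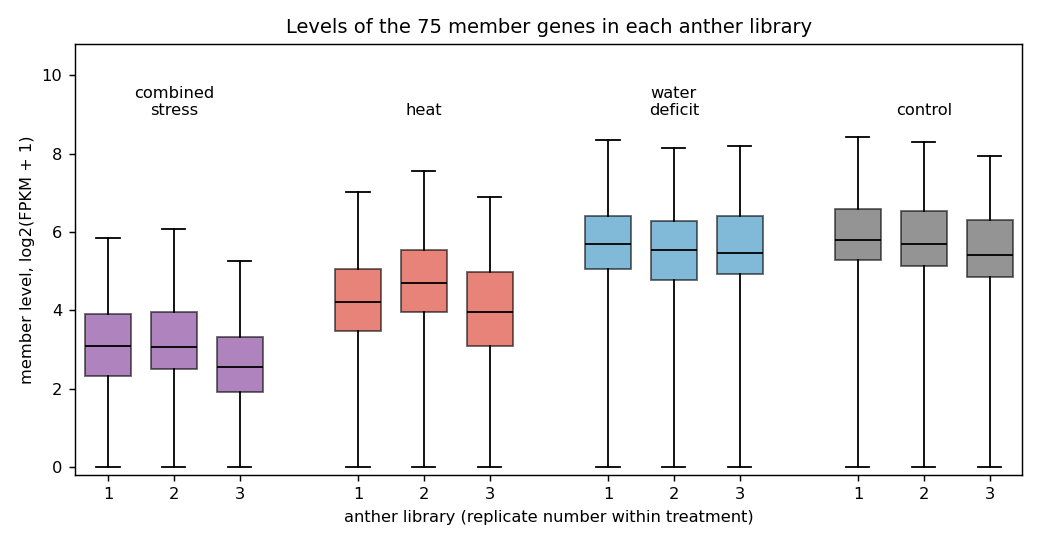
Levels of the 75 members in each of the 12 anther libraries, as log2(FPKM + 1), with boxes for the quartiles, a line for the median and whiskers to the lowest and highest member. The median member lies at 7.48 FPKM or less in combined-stress libraries, between 14.6 and 24.97 FPKM in heated ones and at 41.6 FPKM or more in water-deficit and control ones.

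Although the rule selected for loss, most members stayed detectable under combined stress. Only 3 of 75 had a combined-stress mean under 1 FPKM, and 18 were at or under 10% of their control mean. Combined-stress means as a share of control means had a median of 15.2% (quartiles 10.2% and 18.1%). All 3 combined-stress libraries lay below all 3 controls for 72 members, against 12.2% of the 28529 anther genes tested. The rule used that contrast, and nothing is read from this count. Just inside the limit stood GLYMA_07G085000 and GLYMA_12G159500, at 19.9% of control each, and just outside stood GLYMA_17G106500 at 20.02% and GLYMA_14G192000 at 20.2%. Their heated means were 27.9, 21.5, 16.7 and 13.4 FPKM, and no gap in the values separates the genes on either side of the limit.

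The fall under combined stress was also described in libraries that had not entered the choice. With replicate 1 of every group left out, the rule chose 70 genes, 62 of them members, and 66 of the 70 had a control value above 0 in the left-out library. In replicate 1, the combined-stress value of 56 of these 66 was at most 20% of the control value, and that of 63 at most 50%. For replicate 2 the counts were 47 and 91 of 92, and for replicate 3 they were 59 and 63 of 66. The same counts were not taken over all genes, so they are a description. Single shares in the left-out libraries reached 394%, 88.8% and 175% for replicates 1, 2 and 3. In the same order, 4, 4 and 6 chosen genes had a left-out control at 0 and no share. The median share in the left-out libraries was 14.6%, 19.2% and 11.1%. By the median, the left-out fall was thus smallest in replicate 2, where the rule on the other libraries had chosen 96 genes, 70 of them members.

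The 2 members with the highest control means followed the same order as the whole set. GLYMA_03G220400 stood at 41.6, 49.8 and 16.9 FPKM under combined stress, 110, 170 and 80.4 FPKM under heat, 326, 228 and 284 FPKM under water deficit, and 331, 312 and 207 FPKM in the control. GLYMA_17G202000 stood at 54.8, 60.8 and 27.9 FPKM under combined stress, 116, 164 and 76.0 FPKM under heat, 307, 256 and 254 FPKM under water deficit, and 346, 282 and 216 FPKM in the control. In both genes the combined-stress libraries were below the heated ones, and the heated ones were below all water-deficit and control libraries. Within combined stress replicate 3 was lowest, and within heat replicate 2 was highest.

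Most members had their highest and lowest values in the same libraries of a treatment. Of the 75, 63 were lowest in replicate 3 of combined stress, 65 were highest in replicate 2 of heat, and 62 were highest in replicate 1 of the control. Replicate 3 was also lowest for 66 members in the control and for 53 under heat. Under water deficit, 51 members were highest in replicate 1 and 44 were lowest in replicate 2. The neighbours GLYMA_09G042100 and GLYMA_09G042200 differed in level but shared this order under heat. There GLYMA_09G042100 stood at 11.7, 22.1 and 6.53 FPKM, and GLYMA_09G042200 at 94.0, 154 and 61.1 FPKM. The summed FPKM of the 914 retained anther genes was also lowest in replicate 3 of combined stress. It was highest in replicate 2 of heat and replicate 1 of the control, and lowest in replicate 3 of the control. Those extremes are thus not particular to the members. Under heat, however, that sum was lowest in replicate 1, at 62936 FPKM against 68349 FPKM in replicate 3, where 53 members were lowest. Under water deficit that sum was highest in replicate 3 and lowest in replicate 2. The counts were not taken over all genes.

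**Figure D2:**
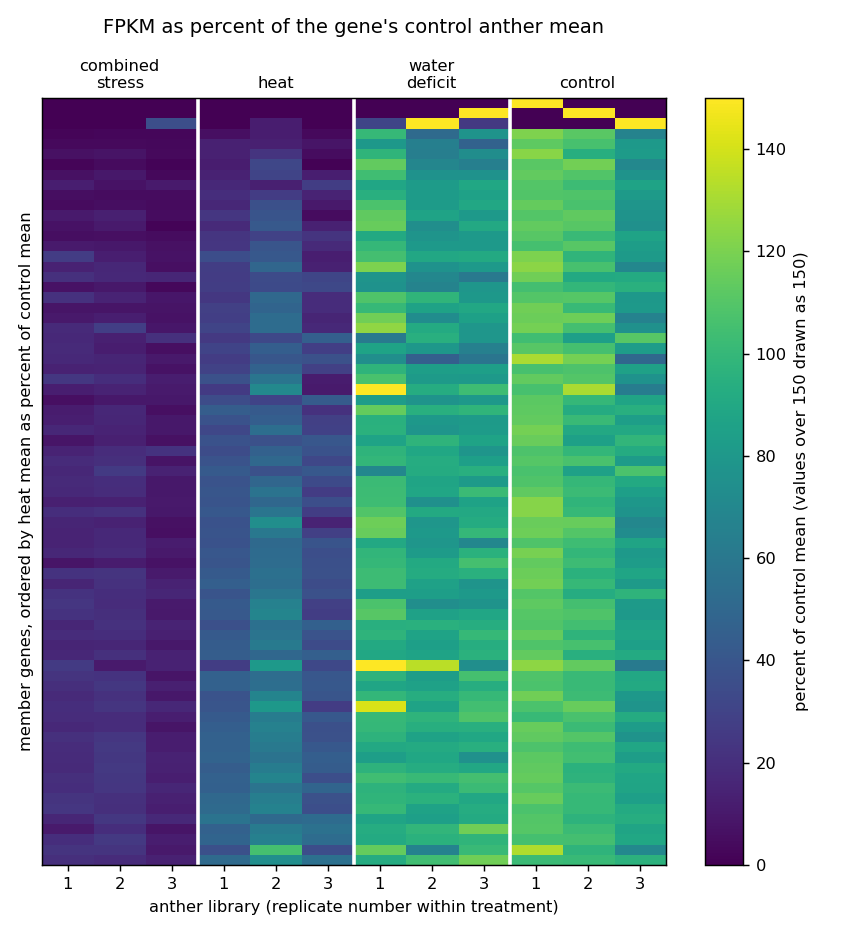
FPKM of each member in each anther library as a percent of that gene's control anther mean, with genes as lines ordered by their heated share of control and libraries as columns; values over 150% are drawn as 150%. Most members darken from water deficit to heat to combined stress, and the top 3 lines are genes listed at 0 in several libraries, control libraries included.

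Only 3 of the 75 members were listed at 0 in any anther library, and each owed its place to single libraries. GLYMA_01G025700 was at 81.2 FPKM in control replicate 1 and listed at 0 in the other 11 anther libraries. GLYMA_04G093000 was at 66.2 FPKM in control replicate 2 and 159 FPKM in water-deficit replicate 3, and listed at 0 in the other 10. GLYMA_03G124100 was at 95.4 FPKM in control replicate 3, at 9.92, 59.9 and 7.87 FPKM under water deficit, at 3.76 FPKM in heat replicate 2 and at 11.5 FPKM in combined-stress replicate 3, and listed at 0 elsewhere in the anther. In each of these genes 2 of the 3 controls were also at 0, so their low stress values are not distinct from the control. The other 72 members were above 0 in all 12 libraries, and their medians were close to those of all 75, at 15.4% of control under combined stress, 41.6% under heat and 92.2% under water deficit.

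Heated and water-deficit levels are set beside the control as values, because the rule used the control anthers. Heated means were a median of 40.6% of control means (quartiles 31.2% and 47.0%, highest 60.5%). All 3 heated libraries lay below all 3 controls for 67 of 75 members, against 9.43% of tested genes. Water-deficit means were a median of 92.1% of control means (quartiles 85.7% and 95.8%), and 62 of 75 lay between 80% and 120%. All 3 water-deficit libraries lay below all 3 controls for 6 members, against 3.38% of tested genes, and the reverse held for 0 members, against 3.19%. The libraries of these groups overlapped for 69 members, against 93.4% of tested genes, so the share that overlapped was near that of all genes. All 3 combined-stress libraries lay below all 3 heated ones for 62 members, against 10.5% of tested genes, in a contrast that shares the combined-stress libraries with the rule. Over the 73 members with a heated mean above 0, the combined-stress mean was a median of 36.9% of the heated mean. FPKM in the anther were also shifted as a whole, with a median log2 difference from control over all tested genes of 0.62 under combined stress, 0.21 under heat and 0.01 under water deficit. After median-of-ratios rescaling, which removes most of that shift, the members were at medians of 8.69% of control under combined stress, 33.1% under heat and 90.05% under water deficit. Retained anther genes, as deposited, were at a median of 41.2% of control under combined stress, 77.3% under heat and 95.8% under water deficit, and after rescaling at 24.1%, 62.9% and 95.3% in the same order.

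Members differed in how much of their level remained under heat alone. For 11 members the heated mean was at least 50% of control. GLYMA_16G113700 had the highest share, with 7.0, 6.42 and 4.75 FPKM under combined stress, 18.0, 25.8 and 19.2 FPKM under heat, and 35.6, 35.2 and 33.4 FPKM in the control. Its 3 treatments did not overlap. GLYMA_01G018500 came next at 59.2% of control, but that mean rested on replicate 2, with 7.80, 22.6 and 7.59 FPKM under heat against 28.3, 20.8 and 15.0 FPKM in the control. For 55 members the heated mean lay between 20% and 50% of control.

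For 9 members the heated mean was at most 20% of control, among them the 3 genes with values of 0. In the other 6 the combined-stress mean was between 2.42% and 10.3% of control, while the water-deficit mean was between 63.9% and 86.8%. GLYMA_19G227300 had the lowest heated share of these, with 0.973, 1.07 and 1.17 FPKM under combined stress, 2.78, 5.25 and 1.72 FPKM under heat, 44.5, 23.0 and 34.0 FPKM under water deficit and 53.5, 49.5 and 29.8 FPKM in the control. In this gene heat alone left 7.33% of the control mean. GLYMA_09G036200, the most abundant of the 6, averaged 6.46 ± 0.863 FPKM under combined stress, 20.5 ± 5.13 FPKM under heat, 111 ± 28.6 FPKM under water deficit and 174 ± 29.0 FPKM in the control (SD, n = 3 each). The other 4 were GLYMA_10G272600, GLYMA_02G253400, GLYMA_03G256000 and GLYMA_12G105700. GLYMA_10G272600 stood at 2.32, 2.64 and 1.31 FPKM under combined stress, 4.67, 7.86 and 1.74 FPKM under heat, 33.9, 22.2 and 25.5 FPKM under water deficit, and 42.7, 32.4 and 28.5 FPKM in the control. GLYMA_12G105700 stood at 3.21, 1.83 and 2.74 FPKM under combined stress, 4.41, 3.35 and 6.83 FPKM under heat, 22.3, 20.6 and 22.5 FPKM under water deficit, and 27.6, 25.8 and 21.9 FPKM in the control. In GLYMA_10G272600 the combined-stress and heated libraries overlapped, whereas in GLYMA_12G105700 they did not, and in both genes all of them were far below the water-deficit and control libraries. These 6 genes were singled out after their values were seen.

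The share left under heat varied little with the control level. Median heated shares were 37.4% for 26 members with control means from 20 to under 40 FPKM, 39.4% for 28 members from 40 to under 80 FPKM, and 42.1% for 21 members from 80 FPKM. Among the 72 members above 0 throughout, the lowest water-deficit share was that of GLYMA_03G147600, at 16.9, 10.4 and 13.4 FPKM under water deficit against 30.1, 27.2 and 11.5 FPKM in the control. The highest was that of GLYMA_16G067100, at 75.1, 56.9 and 31.2 FPKM under water deficit against 52.4, 48.1 and 26.1 FPKM in the control. The libraries of both genes overlapped between water deficit and control.

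Heated anthers were tested against water-deficit anthers, the pair of anther groups that the rule did not use, to compare the single stresses. Of the 75 members, 66 were lower under heat and 0 were higher, at an adjusted p under 0.05 (limma over all 28529 genes tested, on log2(FPKM + 1), Benjamini-Hochberg). Over all tested genes, 2.2% were lower and 10.5% higher. After median-of-ratios rescaling the split over all tested genes was 3.11% lower and 4.08% higher, and 68 members were lower and 0 higher. The median log2 fold change of the members was -1.16, against 0.19 over all tested genes. No member had a positive fold change, and 1, GLYMA_01G025700, had a fold change of 0 because it was listed at 0 in all 6 libraries. All 3 heated libraries lay below all 3 water-deficit ones for 71 members, against 6.98% of tested genes. Among the 914 retained anther genes 173 were lower and 22 higher, with a median of -0.30. That difference between members and retained genes was not tested.

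**Figure D3:**
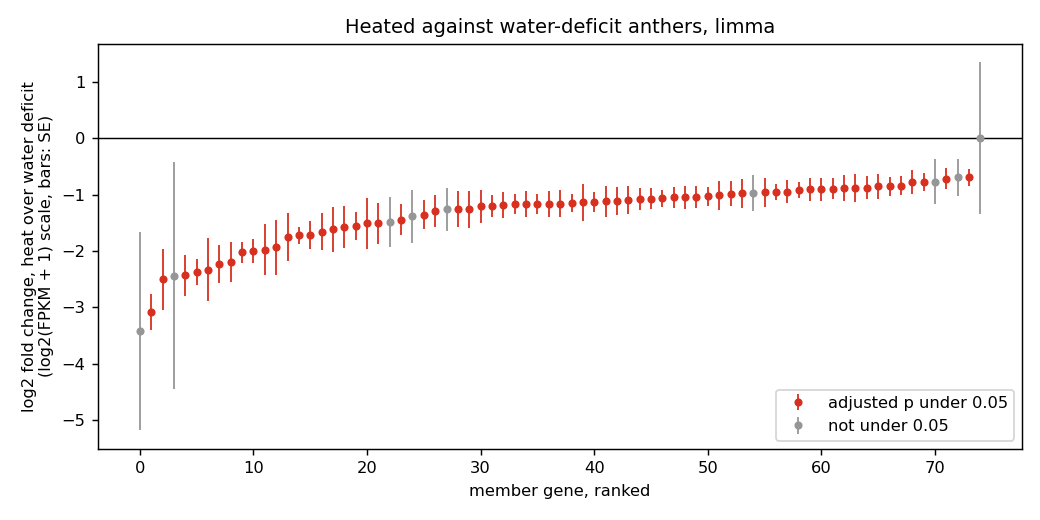
Log2 fold change of heated over water-deficit anthers for the 75 members, ranked, with standard errors from limma; red points passed an adjusted p of 0.05 and grey points did not. Points lie below 0 for 74 members, and the 66 red points run from -0.70 to -3.07.

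The largest called difference was that of GLYMA_19G227300 (log2 fold change -3.07, SE 0.32, limma adjusted p = 0.000476). Next came GLYMA_02G253400, at 2.69, 7.12 and 0.205 FPKM under heat against 25.3, 15.3 and 14.3 FPKM under water deficit (log2 fold change -2.50, SE 0.54, limma adjusted p = 0.0152). Its heated libraries spread widely but all lay below the water-deficit ones. Its limma adjusted p was 0.0528 without water-deficit replicate 1 and 0.0857 on the 6 compared libraries alone. Of the 2 members with the highest control means, GLYMA_17G202000 was lower under heat (log2 fold change -1.26, SE 0.32, limma adjusted p = 0.0275). That call was lost in 6 of 12 alternatives, 5 of which left out a single library, with limma adjusted p between 0.0541 and 0.0963 in those 6. GLYMA_03G220400 was among the 9 that did not pass, with a log2 fold change of -1.26 (SE 0.38, limma adjusted p = 0.0505). The 3 genes listed at 0 in several libraries were also among those 9.

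The count of 66 depended on single libraries. It was 37 without heat replicate 1, 37 without heat replicate 3, 39 without water-deficit replicate 1 and 40 without water-deficit replicate 3, and it was 42 in a fit of the 6 compared libraries alone. The median log2 fold change of the members was between -1.43 and -1.01 over the 12 alternatives tried, and 73 members had a negative fold change in all of them, while 30 of the 66 were called in all of them.

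Outside the anther the members were low, and their mean sum was higher in the stigma than in the sepal and the ovary under each treatment, although single libraries overlapped under combined stress and in the control. In the stigma the 75 members summed to 29.0, 26.1 and 63.3 FPKM under combined stress, 46.4, 102.5 and 93.7 FPKM under heat, 470.2, 298 and 309 FPKM under water deficit, and 413, 227 and 149 FPKM in the control. All stigma sums under combined stress and heat were below all those under water deficit and in the control. The typical member stood in the stigma at 3.07% of its anther mean under combined stress, 3.08% under heat, 6.86% under water deficit and 4.68% in the control. Retained anther genes stood there at similar shares of their anther means, 2.75%, 2.99%, 5.93% and 5.19% in the same order of treatments. Whether anther material or pollen in the stigma samples has a part in these values was not tested.

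**Figure D4:**
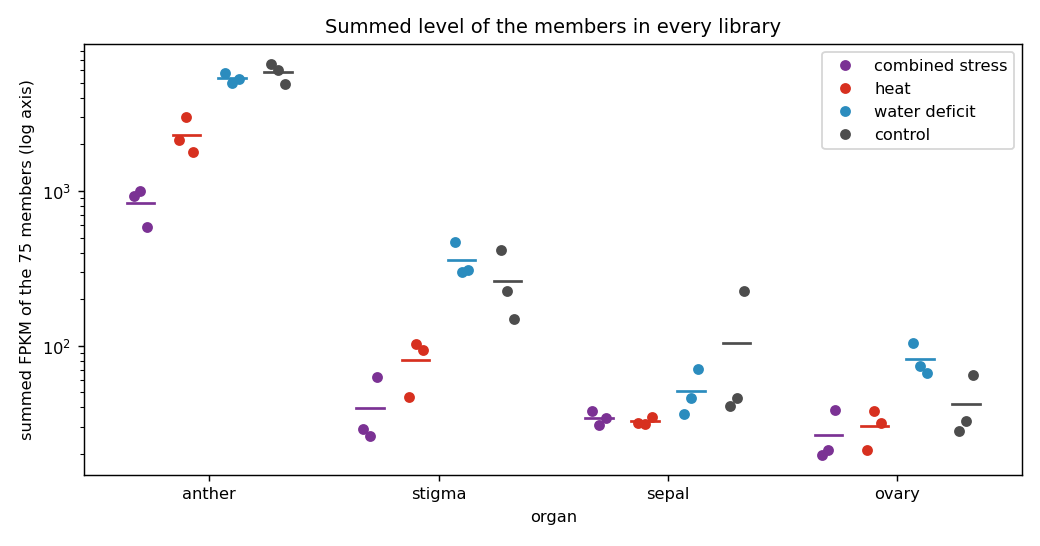
Summed FPKM of the 75 members in every library, by organ and treatment, on a log axis; points are libraries and lines are group means. Anther sums lie at 586 FPKM or more, stigma sums reach 470.2 FPKM, and the highest sepal point, at 227 FPKM, is control replicate 3.

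Combined stress was tested against water deficit in the stigma, since neither group had entered the rule. Limma called 62 of the 75 members lower and 0 higher, where 11.2% of the 33609 stigma genes tested were lower and 5.44% higher. The median log2 fold change was -1.65 among the 72 tested members, against -0.04 over all tested genes. Of the 904 retained anther genes tested in the stigma, 582 were also lower, so the fall was not limited to the members. Testing needed a mean of 1 FPKM in some stigma group, and 44 of the 72 members tested had this only through water deficit or the control. Those 44 entered through the groups in which they were higher, so the count is a description of the members. Without that filter 61 were lower. GLYMA_09G027300 stood at 0.389, 0.194 and 1.75 FPKM in stigmas under combined stress against 21.1, 16.1 and 15.4 FPKM under water deficit (log2 fold change -3.47, SE 0.56, limma adjusted p = 0.00424). GLYMA_09G036200 was listed at 0 in all 3 combined-stress stigmas against 11.0, 5.75 and 10.7 FPKM in those under water deficit (limma adjusted p = 0.000652). It is one of those 44 members, so its p is given as a description.

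Heat alone against water deficit gave 49 members lower and 0 higher in the stigma, where 4.96% of tested genes were lower and 3.28% higher. This count too is a description, since the same 44 members were tested only through water deficit or the control. GLYMA_17G202000 stood at 1.42, 3.39 and 2.63 FPKM in heated stigmas against 23.8, 14.8 and 15.9 FPKM in water-deficit ones (log2 fold change -2.47, SE 0.40, limma adjusted p = 0.00859). GLYMA_09G036200 was listed at 0 in 1 heated stigma library and stood at 1.07 and 0.549 FPKM in the others (limma adjusted p = 0.00391, with the same limit). Of the 904 retained anther genes tested, 160 were lower. The count of 49 was 15 without water-deficit replicate 1, 18 without heat replicate 1, 26 without water-deficit replicate 3, 28 without heat replicate 3 and 30 without heat replicate 2.

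To set the members against other anther genes of the same library, the sum of the members was taken as a percent of the sum of the 914 retained anther genes. In the stigma it was 2.33%, 1.31% and 2.71% under combined stress, 2.82%, 3.30% and 3.55% under heat, 7.91%, 6.77% and 6.15% under water deficit, and 5.64%, 6.40% and 5.23% in the control. In the anther it was 2.11%, 1.94% and 1.40% under combined stress, 3.37%, 4.28% and 2.60% under heat, 7.65%, 6.66% and 6.47% under water deficit, and 7.73%, 7.65% and 6.42% in the control. In both organs the libraries under either heat treatment lay below all libraries at control temperature. The stigma controls and the combined-stress and control anthers had entered the rule, and these ratios were not tested.

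**Figure D5:**
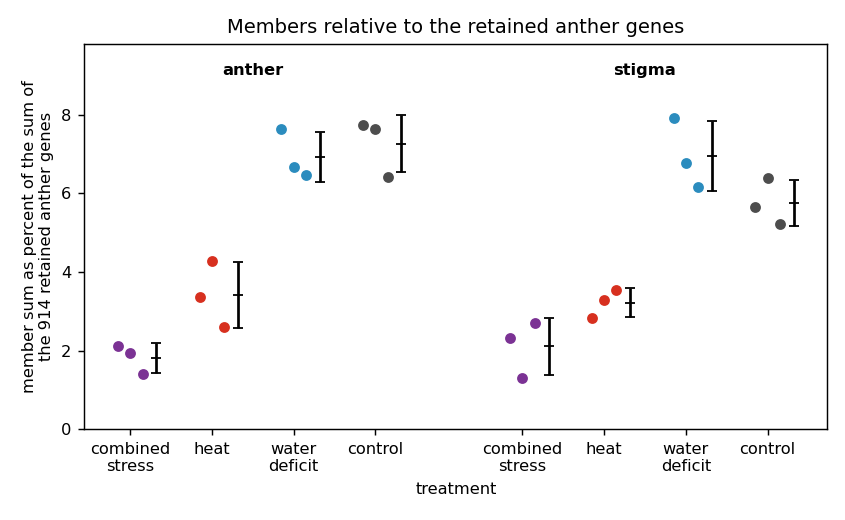
Sum of the 75 members as a percent of the sum of the 914 retained anther genes in each anther and stigma library; coloured points are libraries, and black bars are the mean ± SD (n = 3). Points under combined stress and heat lie at 4.28% or less, and those under water deficit and in the control at 5.23% or more, in both organs.

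In the sepal and the ovary most members were near 0. In the sepal 35 of 75 were listed at 0 in all 3 combined-stress libraries, 22 in all 3 heated, 8 in all 3 water-deficit and 3 in all 3 control libraries. By group means, retained anther genes went in the same order there. Their library medians averaged 0.0994 FPKM under combined stress, 0.246 under heat, 0.456 under water deficit and 1.13 ± 1.35 (SD, n = 3) in the control. The step from water deficit to control rested on control replicate 3, at 2.69 FPKM. The other sepal controls, at 0.200 and 0.517 FPKM, were not above the water-deficit libraries, at 0.257, 0.367 and 0.745 FPKM. Sepal sums were between 31.0 and 37.6 FPKM under combined stress, 31.4 and 34.6 FPKM under heat, 36.1 and 70.5 FPKM under water deficit, and 40.6, 45.7 and 227 FPKM in the control. Control replicate 3 of the sepal thus held most of the control signal, and its retained anther genes also stood apart, at 0.595% of FPKM against 0.168% and 0.216% in the other sepal controls. In the ovary 31 members were listed at 0 in all 3 combined-stress libraries, 15 in all 3 heated, 5 in all 3 water-deficit and 7 in all 3 control libraries. The library medians of retained anther genes in the ovary averaged 0.127, 0.368, 0.746 and 0.492 FPKM in the same order of treatments. Ovary sums were 19.6, 21.1 and 38.3 FPKM under combined stress, 21.1, 38.0 and 31.5 FPKM under heat, 104, 73.8 and 66.6 FPKM under water deficit, and 28.3, 32.5 and 64.9 FPKM in the control. Without the 3 genes listed at 0 in several anther libraries, the ovary sums were 45.6 and 23.1 FPKM in water-deficit replicates 2 and 3, and 19.1 FPKM in combined-stress replicate 3. The difference in those water-deficit libraries was GLYMA_04G093000, at 28.1 and 43.5 FPKM, and without it the water-deficit sums overlapped with those of the control, although replicate 1 stayed at 104 FPKM.

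The highest member in the sepal was GLYMA_02G278300. It stood there at 8.11, 11.5 and 11.1 FPKM under combined stress, 12.3, 7.25 and 10.4 FPKM under heat, 5.35, 6.42 and 6.46 FPKM under water deficit, and 6.57, 6.16 and 13.1 FPKM in the control. In the anther the same gene stood at 33.7, 36.5 and 18.2 FPKM under combined stress, 77.6, 110 and 51.8 FPKM under heat, 198, 171 and 198 FPKM under water deficit, and 218, 197 and 163 FPKM in the control. In the anther both heat treatments lay below water deficit, and in the sepal both lay above it. Its organs were fitted separately, and the difference between them was not tested.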

How the data were processed

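Per the submitters' processing notes, the authors aligned paired reads of 150 bases with HISAT2 2.2.1. They deposited FPKM, in 1 table for each organ. How genes were counted, and on which build and annotation, was not given in the sources used here. FPKM are shares of a library's total, so a change in abundant genes moves all others. Of 57147 identifiers, 0 matched the reference gene table (Glycine_max_v4.0). Columns were matched to samples by the labels' descriptions.

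The members and lists were chosen with earlier results of these data known. Group means gave the members. For each organ, limma 3.58.1 (R 4.3.3) was fitted to log2(FPKM + 1) of all 12 libraries, with robust empirical Bayes and a trend in the variance, for genes with a mean of 1 FPKM or more in some group. Tests were two-sided, with Benjamini-Hochberg adjustment over all tested genes and a threshold of 0.05. Fold changes on this scale understate changes of low genes. Named genes were the 2 with the highest control mean, the 2 at either end of the heated and water-deficit shares of control, the 2 lowest combined-stress shares, the 2 largest called differences per test whose groups did not overlap, and the 2 on each side of the 20% limit. Genes outside this rule (the retained-under-heat and low-under-heat classes, the neighbours, and those that differ between organs) were chosen after their values were seen. Alternatives were the pseudocount, the filter, median-of-ratios rescaling, a fit on the compared libraries alone, a replicate block, single libraries left out and other limits in the rule. On simulated data, the anther heat against water-deficit test on 28529 genes recovered 64% of genes changed 2-fold and 94% of those changed 4-fold. Simulated errors were independent between genes, and changes were placed only in genes above a set mean level. All other genes were simulated without a group difference, whereas the data had 2.2% of genes called lower and 10.5% higher. The adjustment was therefore stricter on the simulated data. Most members shared their highest and lowest libraries, so these recovery rates need not hold for them. Figures used matplotlib 3.10.9 under Python 3.11.15.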

Additional observations from a re-analysis of the deposited data

Results flagged for a closer look

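Of the members, 4 moved in opposite directions in different organs, with all 3 libraries of a group on one side in each organ. Over the 28529 genes tested in the anther, 24.9% had such a pattern between some pair of organs, against 5.33% of the 75 members, so the pattern is not particular to them. These differences between organs were not tested, and the combined-stress anthers had entered the choice of the members. GLYMA_02G278300 averaged 10.2 FPKM under combined stress and 9.98 FPKM under heat in the sepal, against 6.08 FPKM under water deficit there, while in the anther and the stigma both heat treatments lay below water deficit. GLYMA_07G001400 averaged 2.85 FPKM under combined stress and 1.61 FPKM under heat in the sepal, against 1.18 FPKM under water deficit. It was lower than under water deficit in combined-stress and heated anthers and in combined-stress stigmas. GLYMA_06G317600 averaged 1.96 FPKM under combined stress in the sepal, against 1.10 FPKM under water deficit, and was lower in combined-stress anthers and stigmas. GLYMA_12G105700 averaged 0.216 FPKM under heat in the ovary, against 0.0326 FPKM under water deficit, and was lower in heated anthers and stigmas, with both ovary values close to 0.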

How the results depend on the processing

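The number of members depended on the rule's limits and on scaling. It was 130 with a fall to 25% in place of 20% of control, 43 with a fall to 16.7%, 39 with an enrichment of 16 in place of 8, 32 with the enrichment taken on mean + 5, and between 56 and 101 as single control or combined-stress anther libraries were left out. Median-of-ratios rescaling of the anther libraries gave 355 genes, which held 70 of the 75. The median heated share was between 34.5% and 44.5% and the median water-deficit share between 84.9% and 98.3% as single libraries were left out, an alternative chosen after seeing the data, with 84.9% without control replicate 3. The count of members lower in heated than in water-deficit anthers was 42 on those 6 libraries alone and between 37 and 71 as libraries were left out, and 30 of the 66 calls held under all 12 alternatives. In the stigma the counts were between 52 and 59 for combined stress and between 15 and 45 for heat as libraries were left out. In none of these 3 comparisons was a member called higher under any alternative. With the replicate number as a block the counts were 70 in the anther, and 60 and 34 in the stigma for combined stress and heat. Over all tested genes, same-numbered libraries of the compared groups did not deviate together (correlations between -0.26 and 0.15). The number is therefore not taken as a pairing in these tests. Other pairs of anther groups were not checked. Replicate 3 was lowest for 66 of 75 members in control, 53 in heated and 63 in combined-stress anthers. Of the genes named for these tests, GLYMA_17G202000 lost its call in the anther under 6 of 12 alternatives and GLYMA_02G253400 under 2, while GLYMA_19G227300 in the anther and the 4 calls named in the stigma were kept under all 12. Since only relative depth could be estimated, values near 0 in the sepal and ovary are given without an estimate of their counting error.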
